A study of Mus musculus with 34 samples.

Results

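Endothelial cells line blood and lymph vessels, and 10 genes used as their markers were followed through mouse skin before and after ionizing radiation. The 10 were taken by symbol: the junction, surface and granule genes Pecam1, Cdh5, Vwf, Plvap and Emcn, and the growth factor receptor genes Kdr, Flt1, Tek, Tie1 and Eng. Each of the 10 symbols stood on 1 row of the back-skin table and 1 row of the footpad table, and all 10 passed the filter of 1 FPKM in at least 1 group of the tissue, among 14972 back-skin and 13740 footpad genes that did.

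Bulk RNA sequencing covered 34 samples of total RNA from mice 8 to 10 weeks old, in 17 groups of 2. Back skin in the growth phase of its hair came from p53 knockout, Krt17 knockout and wild-type mice without irradiation (0 h) and at 6 and 24 h after 5 Gy, which is 18 samples. Footpad skin came from Krt17 knockout and wild-type mice at T0 without irradiation and at T3, T6 and T9 after 40 Gy, which is 16 samples, and the labels give no unit for T. The labels do not say how either gene was disrupted, in which cells, or on which strain background, nor whether the samples of a group came from separate mice. Values are the authors' mean FPKM of each group, that is fragment counts scaled to transcript length and library size. Single samples are not shown in these tables, so no difference below carries an SD or a test, and the spread between animals is unknown. A difference is given as a log2 ratio of (mean FPKM + 1), which understates changes of genes of a few FPKM, and a ratio of 2-fold or more was counted as past the threshold. Depth in reads is also unknown. FPKM summed over a column to between 854202 and 1095024.

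As a check of the genotype labels, Krt17, the keratin removed in one knockout, had 14.7 to 29.9 FPKM in Krt17 knockout back skin, against 1358 to 1919 FPKM in wild-type back skin. In footpad, Krt17 had 18.2 to 68.1 FPKM in knockout groups, against 92.6 to 835 FPKM in wild-type groups. Trp53, which encodes p53, had 18.0 to 28.8 FPKM in p53 knockout back skin, against 19.3 to 43.8 FPKM in wild-type back skin, so its value over the whole gene did not separate the genotypes and does not check that label. In whole skin, fewer endothelial cells and less of a transcript per endothelial cell cannot be told apart. Keratin (Krt) and keratin-associated (Krtap) genes took between 10.5% and 28.5% of the summed FPKM of a back-skin column, a share that moves the FPKM of every other gene.

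Pecam1 encodes a cell adhesion molecule of endothelial junctions that is also carried by platelets and some leukocytes, and Cdh5 encodes VE-cadherin, the cadherin of endothelial adherens junctions. Vwf encodes von Willebrand factor, a clotting glycoprotein stored in endothelial granules and in platelets. Plvap encodes the protein of the diaphragms that span fenestrae and caveolae, and Emcn encodes endomucin, a sialomucin of capillary and venous endothelium. Kdr encodes the main signalling receptor for the growth factor VEGF-A, and Flt1 encodes a receptor that binds VEGF-A tightly, signals weakly and is also made as a soluble decoy. Tek encodes Tie2, the receptor of the angiopoietins, Tie1 encodes its partner, and Eng encodes endoglin, a co-receptor for ligands of the TGF-beta family. In skin these vessels feed the dermis and the growing hair follicle, and radiation is known to injure them.

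In the GENCODE M21 annotation of GRCm38, the assembly also called mm10, all 10 are protein-coding genes, and the deposited value of each covers the gene as a whole, so soluble and membrane forms of Flt1 are not separated. Pecam1 lies on chromosome 11 from 106654217 to 106750628, Cdh5 on chromosome 8 from 104101625 to 104144511 and Plvap on the same chromosome from 71497765 to 71511752. Vwf lies on chromosome 6 from 125546774 to 125686679, and Emcn on chromosome 3 from 137341067 to 137432185. Kdr and Flt1 are both on chromosome 5, at 75932827 to 75978458 and 147561604 to 147726011, while Tek and Tie1 are both on chromosome 4, at 94739289 to 94874976 and 118471191 to 118490061. Eng lies on chromosome 2 from 32646595 to 32682669 and shares 61 exon bases with Fpgs on the opposite strand. As the strand setting of the counting is not given in the sources used here, reads in those 61 bases could belong to either gene.

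RefSeq's table for GRCm38.p6 holds a promoter window, 250 bases before to 50 after the start, for 6 of the 10 genes (Eng, Emcn, Tek, Tie1, Kdr and Flt1). The 250 upstream bases of Tek, Kdr and Flt1 are shown because these receptor genes took different directions in back skin at 6 h, as given further on. They are written 5′ to 3′ on the gene's own strand, and capitals mark CAGGAA or CCGGAA on either strand (TTCCTG or TTCCGG when read on the other), 2 forms of the core that ETS-family factors bind in endothelial genes. Tek is at chr4:94739039-94739288 on the plus strand, Kdr at chr5:75978456-75978705 on the minus strand and Flt1 at chr5:147726012-147726261 on the minus strand.
Tek: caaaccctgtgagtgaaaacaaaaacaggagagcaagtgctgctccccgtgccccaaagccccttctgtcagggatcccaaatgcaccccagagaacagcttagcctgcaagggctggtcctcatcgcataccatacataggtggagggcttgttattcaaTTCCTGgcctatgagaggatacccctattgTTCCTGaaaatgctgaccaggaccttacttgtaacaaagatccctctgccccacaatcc
Kdr: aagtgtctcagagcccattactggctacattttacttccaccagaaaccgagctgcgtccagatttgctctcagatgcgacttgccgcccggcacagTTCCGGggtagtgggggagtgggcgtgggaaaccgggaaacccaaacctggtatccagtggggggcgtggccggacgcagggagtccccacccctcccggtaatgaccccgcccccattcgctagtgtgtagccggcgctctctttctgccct
Flt1: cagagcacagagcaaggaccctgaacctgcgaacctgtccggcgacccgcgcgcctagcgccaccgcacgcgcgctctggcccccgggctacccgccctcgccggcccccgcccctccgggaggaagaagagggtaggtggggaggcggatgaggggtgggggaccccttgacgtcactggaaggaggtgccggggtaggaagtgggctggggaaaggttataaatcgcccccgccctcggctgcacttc
Tek held CAGGAA at 2 places, Kdr held CCGGAA at 1 place, and Flt1 held neither in its whole window of 300 bases. Both words share GGAA, and other words around GGAA were not marked, such as aggaag, which stands in the Flt1 sequence shown. Emcn, whose sequence is not shown, also held CAGGAA at 2 places. A link between these words and the direction at 6 h was not tested. One or both of these words, which do not overlap in these windows, stood in 5 of the 6 windows, against 41.4% of all 32851 windows in the table (30.6% for CAGGAA and 14.9% for CCGGAA). A match is a description of letters and not a binding site, and the count of 6 is small.

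FPKM is scaled by length, so levels of different genes can be set side by side within a tissue. Plvap, Vwf, Pecam1 and Eng together made up 67.8% to 77.9% of the summed FPKM of the 10 genes in back skin and 75.2% to 82.2% in footpad. Plvap ranged from 13.0 to 26.1 FPKM over the 9 back-skin groups and from 12.2 to 36.7 FPKM over the 8 footpad groups. Kdr, Flt1 and Tek all stayed under 5 FPKM, with Tek as low as 0.885 FPKM in Krt17 knockout footpad at T9. The 10 genes summed to 61.3, 57.4 and 73.0 FPKM over 0, 6 and 24 h in p53 knockout back skin, 77.2, 60.9 and 76.4 FPKM in Krt17 knockout back skin, and 83.8, 70.6 and 94.0 FPKM in wild-type back skin. In each genotype the 6 h group had the lowest sum, and the p53 knockout had the lowest sum at each time. In footpad at T0, T3, T6 and T9 the sum was 67.1, 82.5, 121.6 and 71.7 FPKM in Krt17 knockout mice and 56.6, 47.1, 104.2 and 78.5 FPKM in wild-type mice. Both genotypes reached their highest sum at T6. The 2 tables were made separately, so levels were compared across tissues only as ranges. Cdh5 was the only one of the 10 genes whose ranges were separate, with 4.05 to 6.17 FPKM in back skin and 1.35 to 2.99 FPKM in footpad.

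**Figure D1:**
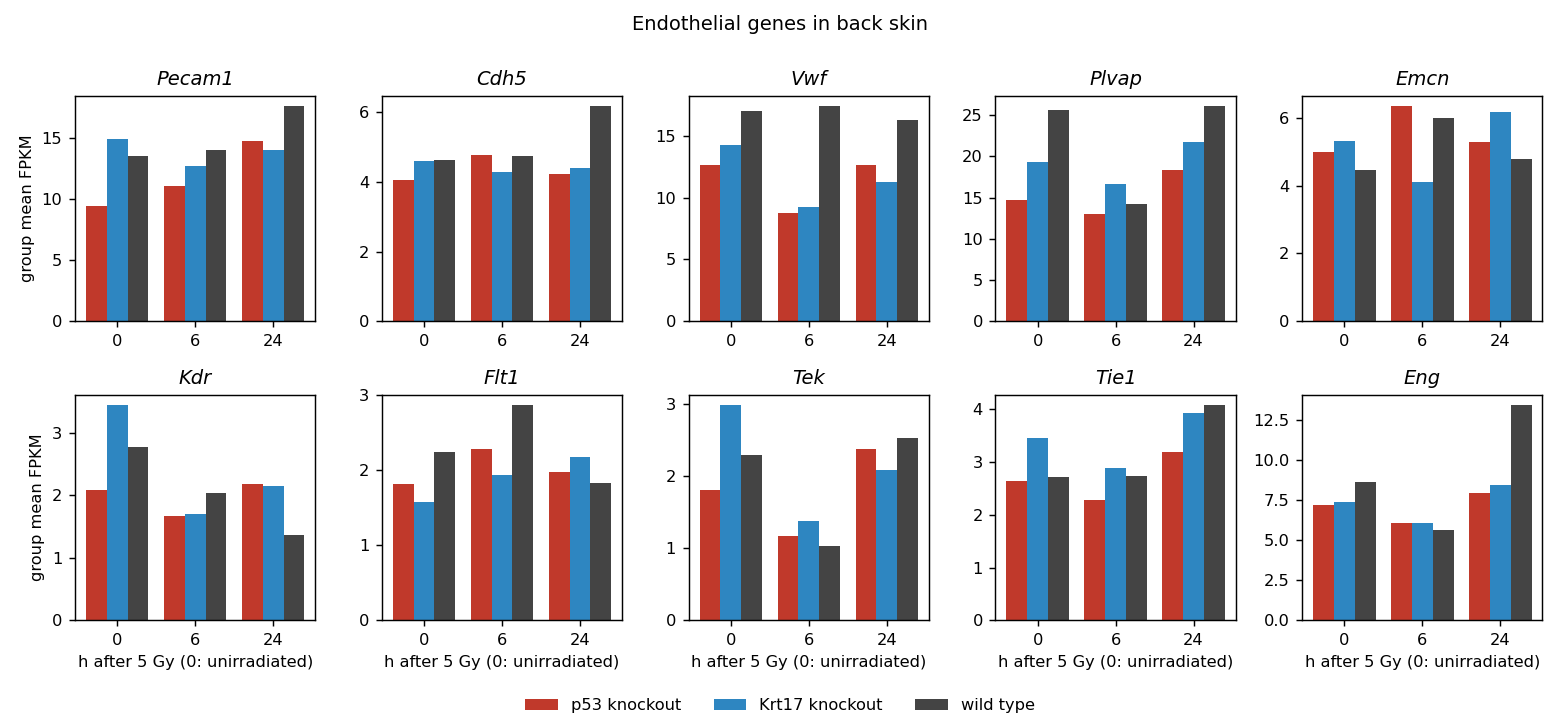
Authors' group mean FPKM of the 10 endothelial genes in back skin, 1 panel per gene with its own axis, at 0 h (unirradiated) and at 6 and 24 h after 5 Gy, in p53 knockout, Krt17 knockout and wild-type mice (1 bar per group of 2 samples, no error bars because single samples are not shown). Tek is lowest at 6 h in each genotype, and Plvap and Eng are also lower at 6 h than at 0 h in each genotype.

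The first question was how back skin at 6 h after 5 Gy differed from unirradiated skin at 0 h. The labels hold no unirradiated group at 6 or 24 h, so dose and time of harvest cannot be told apart. The same holds for footpad, where only T0 was unirradiated. The genes took opposite directions at 6 h in p53 knockout, Krt17 knockout and wild-type skin alike: the receptor genes Tek, Kdr and Eng and the diaphragm gene Plvap were lower than in unirradiated skin of the same genotype, and the receptor gene Flt1 was higher. None of the 10 genes was 2-fold higher or lower at 6 h, against 3.14% of all genes in p53 knockout, 2.71% in Krt17 knockout and 4.96% in wild-type skin. With 0.1 FPKM added in place of 1, Tek was 2-fold lower in Krt17 knockout (log2 ratio -1.06) and wild-type skin (-1.08). The shares just given do not apply to that setting. Under it each of 58 counts of all genes 2-fold higher or lower rose, by 119 to 778 genes. Tek, the angiopoietin receptor gene, had 1.81, 1.17 and 2.38 FPKM over 0, 6 and 24 h in p53 knockouts, 2.98, 1.38 and 2.09 FPKM in Krt17 knockout skin, and 2.29, 1.03 and 2.54 FPKM in wild-type skin. The 3 groups at 6 h lay below all 6 other groups, with log2 ratios to 0 h of -0.37, -0.74 and -0.70. Tie1, the gene of the partner receptor, had 2.63, 2.27 and 3.18 FPKM in p53 knockout, 3.45, 2.88 and 3.93 FPKM in Krt17 knockout and 2.70, 2.73 and 4.06 FPKM in wild-type skin at the same times. Its 24 h group was the highest in each genotype, and its 6 h group was close to its 0 h group in wild type.

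The VEGF receptor genes parted at 6 h. Kdr had 2.08, 1.67 and 2.18 FPKM over 0, 6 and 24 h in p53 knockouts, 3.43, 1.69 and 2.15 FPKM in Krt17 knockout skin, and 2.77, 2.03 and 1.37 FPKM in wild-type skin. Its level at 6 h was below that at 0 h in each genotype (log2 ratios of -0.21, -0.72 and -0.32), and at 24 h it was back to its 0 h level in the p53 knockout and below it in the other two genotypes. Flt1 had 1.82, 2.28 and 1.98 FPKM in p53 knockout, 1.58, 1.93 and 2.18 FPKM in Krt17 knockout and 2.24, 2.86 and 1.83 FPKM in wild-type skin. Flt1 was higher at 6 h than at 0 h in each genotype, by log2 ratios of 0.22, 0.19 and 0.25. The plain ratio of Flt1 to Kdr FPKM at 0, 6 and 24 h was accordingly 0.875, 1.37 and 0.905 in p53 knockout skin, 0.460, 1.14 and 1.01 in Krt17 knockout skin, and 0.807, 1.41 and 1.34 in wild-type skin. Kdr exceeded Flt1 in each unirradiated back-skin group and Flt1 exceeded Kdr in each 6 h group.

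**Figure D2:**
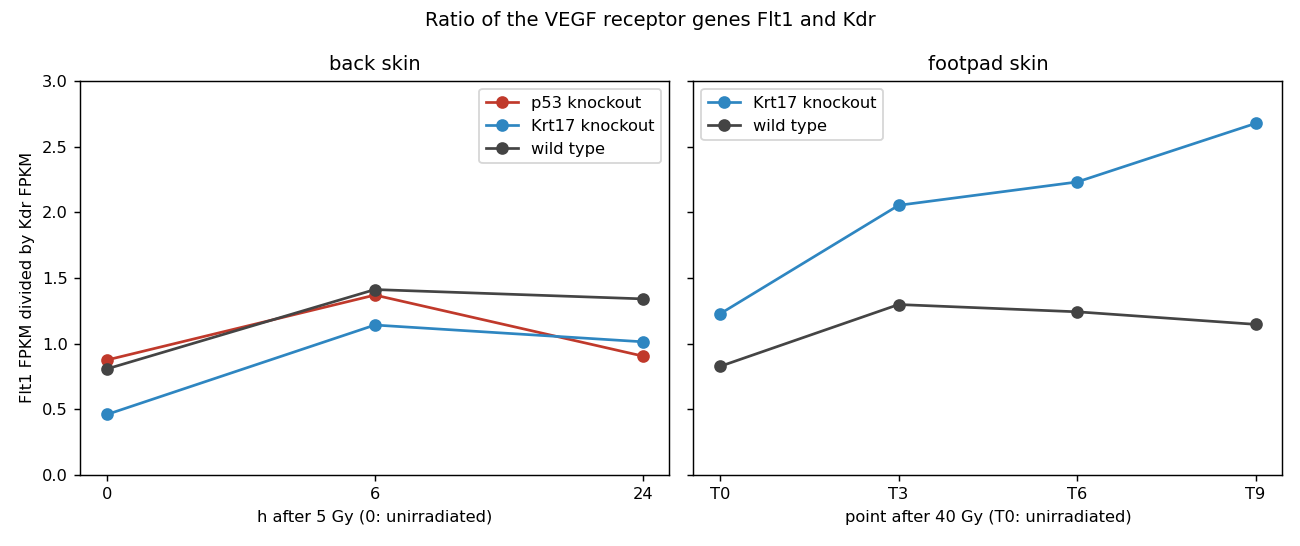
Flt1 FPKM divided by Kdr FPKM (authors' group means, 1 point per group of 2 samples, both panels on 1 axis from 0), against time after 5 Gy in back skin at left and point after 40 Gy in footpad at right. In back skin the ratio is below 1 in the unirradiated groups and between 1.14 and 1.41 at 6 h, and in footpad the Krt17 knockout reaches 2.68 at T9.

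Endoglin and the diaphragm gene had their low point at 6 h as well. Eng had 7.21, 6.08 and 7.94 FPKM over 0, 6 and 24 h in p53 knockouts, 7.35, 6.05 and 8.45 FPKM in Krt17 knockout skin, and 8.60, 5.61 and 13.4 FPKM in wild-type skin. The 3 groups at 6 h again lay below all others, and the wild-type group at 24 h was the highest. Plvap had 14.7, 13.0 and 18.4 FPKM in p53 knockout, 19.3, 16.7 and 21.7 FPKM in Krt17 knockout and 25.6, 14.2 and 26.1 FPKM in wild-type skin. Its log2 ratio of 6 h over 0 h was -0.16 in p53 knockout and -0.20 in Krt17 knockout skin, against -0.80 in wild-type skin, and the highest group at each of 0 and 24 h was wild type.

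Genes of junctions and granules did not share a direction at 6 h. Pecam1 had 9.39, 11.1 and 14.8 FPKM over 0, 6 and 24 h in p53 knockouts, 14.9, 12.7 and 14.0 FPKM in Krt17 knockout skin, and 13.5, 14.0 and 17.6 FPKM in wild-type skin. Cdh5 had 4.05, 4.76 and 4.23 FPKM in p53 knockout, 4.60, 4.27 and 4.40 FPKM in Krt17 knockout and 4.64, 4.74 and 6.17 FPKM in wild-type skin, so that 8 of its 9 values lay between 4.05 and 4.76 FPKM. Vwf had 12.7, 8.72 and 12.6 FPKM in p53 knockout, 14.3, 9.20 and 11.3 FPKM in Krt17 knockout and 16.97, 17.4 and 16.2 FPKM in wild-type skin. Vwf was thus lower at 6 h in both knockouts and nearly level in wild type, and all 3 wild-type groups lay above all 6 knockout groups. Emcn had 5.00, 6.34 and 5.29 FPKM in p53 knockout, 5.33, 4.11 and 6.19 FPKM in Krt17 knockout and 4.48, 5.997 and 4.78 FPKM in wild-type skin, and its 6 h group was the highest of its genotype in 2 of the 3 genotypes and the lowest in the Krt17 knockout.

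Among all 14964 back-skin genes compared, 26.8% were lower at 6 h in each of the 3 genotypes and 16.9% were higher in each, so 4 lower and 1 higher of 10 is not far from the background in number. The median log2 ratio of the 10 genes at 6 h was -0.16 in p53 knockout, -0.23 in Krt17 knockout and 0.02 in wild-type skin, beside 0.02, -0.04 and -0.15 over all genes. The named directions of Tek, Kdr, Eng, Plvap and Flt1 were kept when columns were rescaled by their median ratio or to the total without keratin genes.

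Other endothelial genes were divided at 6 h as well, some with larger ratios. Of 27 that passed the filter (of 30 in the list), 13 were lower at 6 h in each genotype, against 26.8% of all genes. Higher in each were 7, against 16.9% of all genes. At least 1.5-fold lower in each genotype were Aplnr, Apln and Podxl, against 0.909% of all genes, and at least 1.5-fold higher in each were Cldn5 and Gpihbp1, against 0.862% of all genes. Aplnr, the apelin receptor gene of venous and sprouting endothelium, had 2.16, 0.742 and 2.98 FPKM over 0, 6 and 24 h in p53 knockouts, 4.33, 1.24 and 3.45 FPKM in Krt17 knockout skin, and 4.03, 0.944 and 3.10 FPKM in wild-type skin. Apln, the gene of its ligand, had 1.09, 0.292 and 0.606 FPKM, 1.02, 0.207 and 0.721 FPKM, and 0.975, 0.0932 and 0.248 FPKM in p53 knockout, Krt17 knockout and wild-type skin in turn. Apln passed the filter of 1 FPKM only through the 0 h groups of the p53 and Krt17 knockouts. Its count among the genes lower at 6 h is therefore favoured by the filter. Podxl, a sialomucin gene of the luminal surface, had 2.24, 0.932 and 3.28 FPKM in p53 knockout, 3.89, 1.09 and 3.96 FPKM in Krt17 knockout and 3.80, 1.65 and 4.21 FPKM in wild-type skin. For receptor, ligand and sialomucin the 6 h group was the lowest of each genotype, and at 24 h Podxl was above its 0 h level in each. Cldn5, the claudin of endothelial tight junctions, had 11.1, 29.9 and 10.5 FPKM in p53 knockout, 12.7, 24.1 and 12.1 FPKM in Krt17 knockout and 11.1, 31.2 and 16.1 FPKM in wild-type skin. Gpihbp1, which carries lipoprotein lipase across capillary endothelium, had 25.2, 40.8 and 28.4 FPKM in p53 knockout, 21.4, 42.4 and 26.3 FPKM in Krt17 knockout and 20.5, 34.3 and 20.9 FPKM in wild-type skin. For both genes the 3 groups at 6 h lay above all 6 others. Apln and Gpihbp1 were named after their values were seen.

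**Figure D3:**
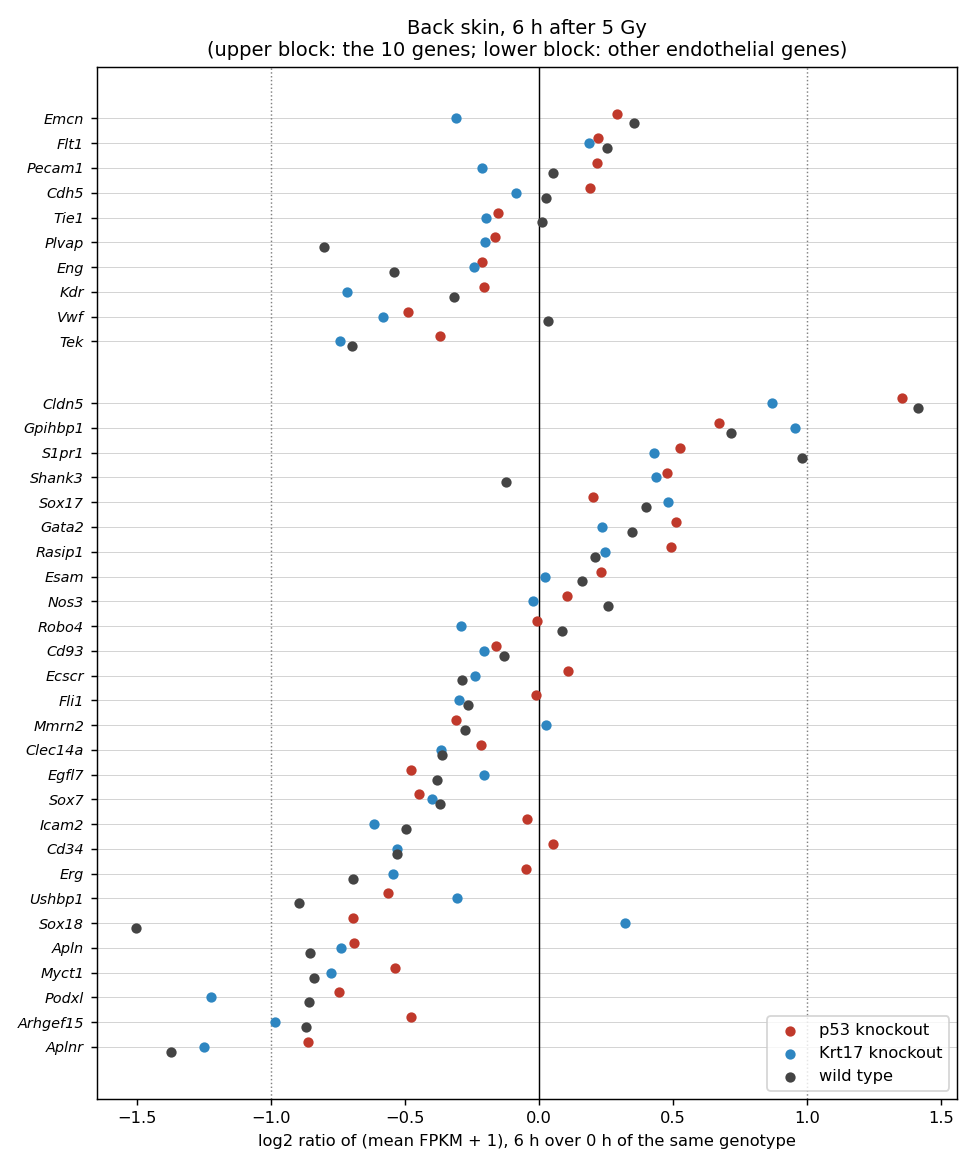
Log2 ratio of (mean FPKM + 1) at 6 h after 5 Gy over 0 h of the same genotype in back skin for the 10 endothelial genes (upper block) and 27 other endothelial genes (lower block), 1 point per genotype, genes sorted within a block by their median, dotted lines at 2-fold. Tek, Kdr, Eng and Plvap lie left of 0 and Flt1 right of 0 in all 3 genotypes, and Aplnr and Cldn5 stand at the ends of the lower block.

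Ligands were followed beside their receptors. The ligand list held 14 symbols, with both Vegfd and Figf for the same gene. Of these symbols 13 were found in back skin, and 9 passed the filter. Vegfa, which encodes VEGF-A, had 20.2, 16.1 and 23.9 FPKM over 0, 6 and 24 h in p53 knockouts, 15.5, 10.1 and 16.8 FPKM in Krt17 knockout skin, and 18.4, 8.95 and 14.7 FPKM in wild-type skin. It was lowest at 6 h in each genotype, as was Nrp1, the neuropilin gene whose product binds VEGF-A together with Kdr, with 6.18, 4.10 and 7.14 FPKM in p53 knockout, 5.69, 3.79 and 6.62 FPKM in Krt17 knockout and 6.46, 3.28 and 4.76 FPKM in wild-type skin. Figf, an older symbol for the gene of VEGF-D, went the other way, with 2.35, 4.32 and 3.33 FPKM in p53 knockout, 1.51, 4.66 and 3.41 FPKM in Krt17 knockout and 2.19, 4.34 and 3.07 FPKM in wild-type skin. Figf was highest at 6 h in each genotype. Angpt2, the gene of the angiopoietin that destabilises vessels, had 1.40, 3.28 and 2.31 FPKM in p53 knockout, 1.54, 1.69 and 2.22 FPKM in Krt17 knockout and 1.15, 1.80 and 2.22 FPKM in wild-type skin, above its 0 h value at both later times in each genotype.

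Lists of other cell types differed between the same groups. The summed FPKM of 10 fibroblast genes at 0 and 6 h was 1067 and 1665 in p53 knockout, 1683 and 1195 in Krt17 knockout and 2127 and 1324 in wild-type skin. That of 10 skeletal muscle genes was 4307 and 5159, 5446 and 6799, and 2730 and 5950 in the same order. That of 8 keratinocyte genes was 5204 and 4131, 5759 and 3453, and 6128 and 4796. The muscle sum was thus higher and the keratinocyte sum lower at 6 h in each genotype, while the fibroblast sum was higher in p53 knockout skin and lower in the other two. Over the 9 back-skin groups the sum of the erythroid list ranged from 387.2 to 1450 FPKM, and that of 8 platelet genes from 61.7 to 135.9 FPKM, most of it from Pf4, with Gp6, Treml1 and Gp9 at or near 0. The part of these lists in the values of the 10 genes was not tested.

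By 24 h the endothelial genes stood above their 6 h level in most cases. All 10 were higher at 24 h than at 6 h in Krt17 knockout skin, 7 of 10 were in p53 knockout skin and 6 of 10 in wild-type skin, against 43.6%, 50.9% and 45.4% of all genes. The median log2 ratio of 24 h over 6 h was 0.35 in p53 knockout, 0.31 in Krt17 knockout and 0.31 in wild-type skin. At 2-fold or more, Eng alone was higher at 24 h than at 6 h in wild-type skin (log2 ratio 1.12), where 2.99% of all genes were. Against 0 h, Tie1, Emcn, Eng and Plvap were higher and Vwf was lower at 24 h in each genotype, beside 12.1% of all genes higher and 21.7% lower in each. This group depends on scaling. Rescaling by the median ratio left 6 genes higher in each genotype and none lower, beside 2723 higher and 2669 lower of all 14965 genes. Rescaling without keratin genes left Tie1 and Eng higher and none lower, beside 1441 higher and 2237 lower of all 14965 genes.

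The next question was whether the knockouts differed from wild type in back skin. No gene of the 10 reached 2-fold in either direction between a knockout and wild type. Of all genes, 1.76%, 5.17% and 6.08% did so at 0, 6 and 24 h in the p53 knockout, and 1.6%, 2.12% and 2.15% in the Krt17 knockout. Before irradiation, 9 of the 10 genes were lower in p53 knockout than in wild-type skin, with Emcn the exception, against 51.8% of all genes below 0. The median log2 ratio was -0.23, and the lowest values were -0.76 for Plvap and -0.48 for Pecam1. In Krt17 knockout skin before irradiation 5 genes were above and 5 below wild type, with a median of 0.06, against 37% of all genes above 0. At 6 h Vwf was lower in both knockouts, by log2 ratios of -0.92 in p53 knockout and -0.85 in Krt17 knockout skin, and the first of these passed 2-fold under either rescaling. At 24 h both knockouts were lower in Eng, by -0.68 and -0.61, and higher in Kdr, by 0.43 and 0.41. These pairs share the same wild-type group and are not independent of each other: the wild-type groups were high in Vwf at 6 h, high in Eng and low in Kdr at 24 h. The response of each knockout minus that of wild type reached 2-fold for none of the 10 genes at either time, against 5.59% and 7.56% of all genes at 6 and 24 h for the p53 knockout and 4.16% and 3.31% for the Krt17 knockout.

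**Figure D4:**
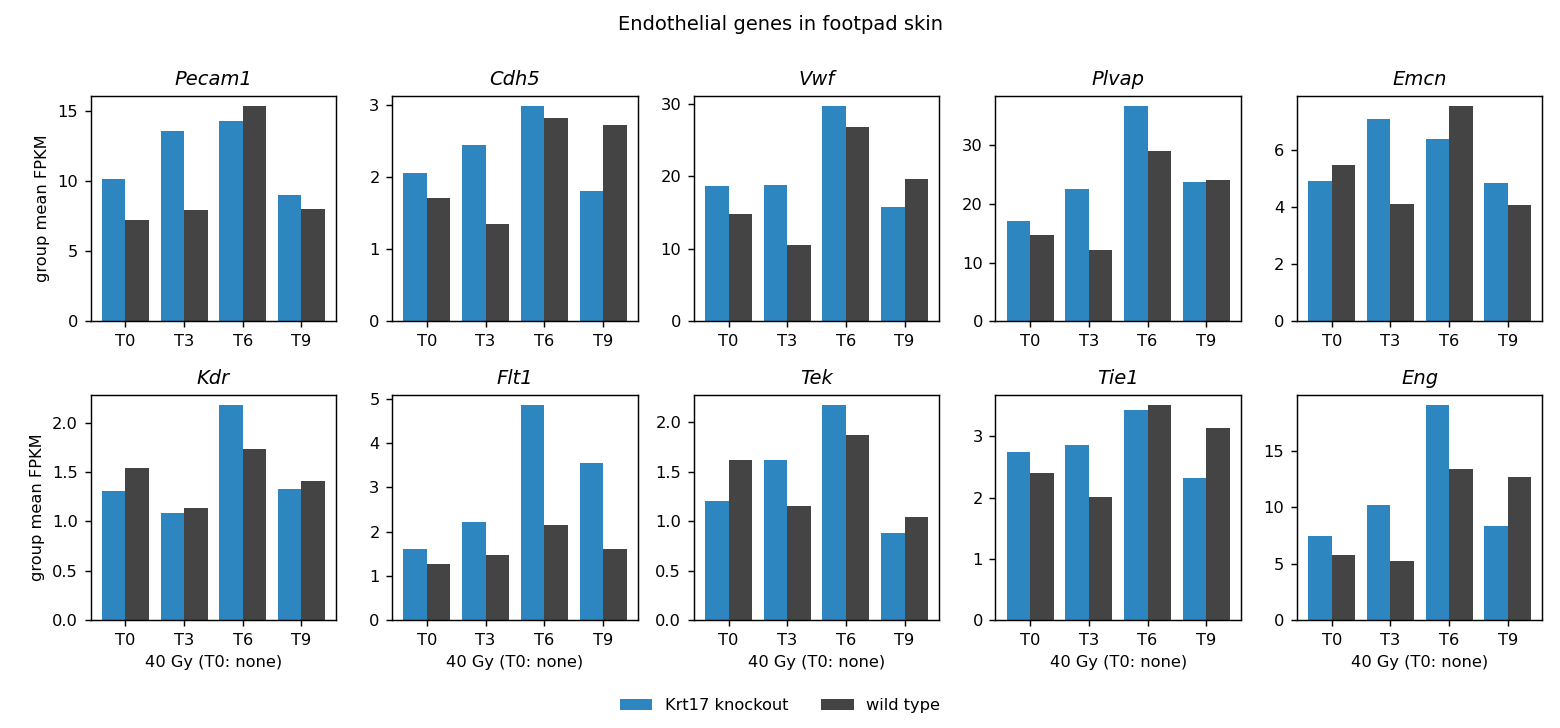
Authors' group mean FPKM of the 10 endothelial genes in footpad skin, 1 panel per gene with its own axis, at T0 (unirradiated) and at T3, T6 and T9 after 40 Gy, in Krt17 knockout and wild-type mice (1 bar per group of 2 samples, no error bars because single samples are not shown). The bars at T6 are above those at T0 in all 10 panels for both genotypes, and Flt1 stays high at T9 in the Krt17 knockout.

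In footpad skin after 40 Gy the 10 genes stood high together at T6. All 10 were higher at T6 than at T0 in Krt17 knockout and in wild-type mice, against 38.3% of all 13731 genes compared that were higher in both. The highest of the 8 footpad values was at T6 for all 10 genes, in the Krt17 knockout for Cdh5, Kdr, Flt1, Tek, Vwf, Eng and Plvap and in wild type for Pecam1, Tie1 and Emcn. The median log2 ratio of T6 over T0 was 0.49 in Krt17 knockout and 0.48 in wild-type mice, beside 0 and 0.04 over all genes. Of the 10 genes, 3 were 2-fold higher in Krt17 knockout mice (Eng, Flt1 and Plvap), against 4% of all genes, and 1 in wild-type mice (Eng), against 2.47% of all genes. All 10 stayed higher at T6 in both genotypes under each rescaling and under the smaller added constant. Of all 13731 genes, 4474 were higher in both under the median ratio, 5089 without keratin genes and 5259 with the smaller constant.

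Endoglin had the largest ratio in both genotypes. Eng had 7.49, 10.2, 19.0 and 8.40 FPKM over T0, T3, T6 and T9 in Krt17 knockout mice, and 5.77, 5.29, 13.4 and 12.7 FPKM in wild-type mice. The log2 ratio of T6 over T0 was 1.24 in Krt17 knockout and 1.09 in wild-type mice, and at T9 Eng was near its T0 level in the knockout and still 2-fold higher in wild type (1.01, where 3.15% of all genes were), though not once columns were rescaled by their median ratio. Acvrl1, the gene of the receptor that signals with endoglin, had 3.03, 4.45, 5.05 and 3.40 FPKM in Krt17 knockout and 2.59, 3.71, 5.97 and 4.31 FPKM in wild-type mice, with its highest value at T6 in both.

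Plvap had 17.1, 22.5, 36.7 and 23.8 FPKM over T0, T3, T6 and T9 in Krt17 knockout mice, and 14.8, 12.2, 29.1 and 24.2 FPKM in wild-type mice. Vwf had 18.6, 18.8, 29.6 and 15.8 FPKM in Krt17 knockout and 14.8, 10.5, 26.7 and 19.7 FPKM in wild-type mice. Pecam1 had 10.1, 13.6, 14.3 and 8.99 FPKM in Krt17 knockout and 7.20, 7.96, 15.3 and 7.98 FPKM in wild-type mice. All 3 genes peaked at T6 in both genotypes, with Pecam1 back near its T0 level at T9. Cdh5 had 2.06, 2.45, 2.99 and 1.82 FPKM in Krt17 knockout and 1.71, 1.35, 2.82 and 2.72 FPKM in wild-type mice. Emcn had 4.92, 7.09, 6.37 and 4.85 FPKM in Krt17 knockout and 5.48, 4.12, 7.52 and 4.06 FPKM in wild-type mice, and was the one gene whose Krt17 knockout values were highest at T3.

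Among the receptor kinases, Flt1 was the gene in which the genotypes stood furthest apart. Flt1 had 1.60, 2.22, 4.85 and 3.56 FPKM over T0, T3, T6 and T9 in Krt17 knockout mice, and 1.28, 1.48, 2.16 and 1.62 FPKM in wild-type mice. The 3 irradiated Krt17 knockout groups all lay above the wild-type maximum of 2.16 FPKM, and the log2 ratio of knockout over wild type was 0.19, 0.38, 0.89 and 0.80 at the 4 points. Kdr did not share this, with 1.31, 1.08, 2.17 and 1.33 FPKM in Krt17 knockout and 1.54, 1.14, 1.74 and 1.41 FPKM in wild-type mice. The plain ratio of Flt1 to Kdr was 1.23, 2.05, 2.23 and 2.68 in Krt17 knockout and 0.826, 1.297, 1.24 and 1.15 in wild-type mice. It was above 1 in all 6 irradiated groups and higher in the knockout at each point. Tek had 1.20, 1.62, 2.17 and 0.885 FPKM in Krt17 knockout and 1.61, 1.16, 1.87 and 1.05 FPKM in wild-type mice, and Tie1 had 2.75, 2.86, 3.43 and 2.32 FPKM in Krt17 knockout and 2.40, 2.01, 3.50 and 3.14 FPKM in wild-type mice. Tek had its lowest value at T9 in both genotypes.

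At T6, 9 of the 10 genes were higher than at T3 in Krt17 knockout mice and all 10 in wild-type mice, against 41.3% and 50.1% of all genes. None was 2-fold higher in Krt17 knockout mice, where 1.7% of all genes were. In wild-type mice 3 were (Vwf, Eng and Plvap, with log2 ratios of 1.27, 1.20 and 1.19), where 2.16% of all genes were. At T9 all 10 genes were lower than at T6 in both genotypes, with medians of -0.55 in Krt17 knockout and -0.26 in wild-type mice, against 37.9% and 53.2% of all genes below 0. Eng in Krt17 knockout mice was the one gene 2-fold lower at that step (-1.09), where 1.71% of all genes were. These steps share the T6 groups with the comparison to T0.

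By the median of the 10 genes, the genotypes stood furthest apart at T3. Of the 10 genes, 9 were higher in Krt17 knockout than in wild-type footpad at T3, with a median log2 ratio of 0.61, against 55.3% of all genes above 0. Plvap and Eng (both 0.84), Vwf (0.79) and Pecam1 (0.70) led, none reached 2-fold (2.37% of all genes did, in either direction), and Kdr was level (-0.04). At T0 the median was 0.18, at T6 0.14 and at T9 -0.09. The response to T3 was higher in the knockout than in wild type for all 10 genes, by a median log2 difference of 0.43, against 52.4% of all genes. That difference uses both T0 groups as well, and each of the 4 group means behind it stands for 2 samples. The wild-type T3 column stood apart from the other 7 footpad columns. It lists Krt10, an abundant keratin of the upper epidermis, at 0. The keratinocyte list without Krt10 summed to 13339 FPKM there, against 26395 to 33060 FPKM for all 8 genes in the others. Keratin and keratin-associated genes, again without Krt10 in this column, held 1.98% of its FPKM, against 4.12% to 5.95%. Its FPKM total of 916989 was the lowest in footpad. As Krt10 is missing from the sum and the share, neither shows whether the column held fewer keratinocytes. The part of this column in the T3 difference was not tested.

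Other gene lists stood high in the same columns. At T6 over T0, 21 of 24 other endothelial genes and 6 of 6 lymphatic genes were higher in both genotypes, against 38.3% of all genes. These are the genes that passed the filter, of 30 and 8 in the lists. As the filter takes 1 FPKM in any footpad group, a gene low at T0 can pass it through T6. Such a gene would be higher at T6 by construction, and how many entered in this way was not counted. At T0 the median of the 8 lymphatic genes was 0.975 FPKM in Krt17 knockout and 0.685 FPKM in wild-type mice. The share over all genes is under the same filter. Mmrn2, an extracellular matrix gene of endothelium, had the largest ratio of the other endothelial genes in both, with 1.81, 4.39, 4.92 and 3.13 FPKM over T0, T3, T6 and T9 in Krt17 knockout and 1.75, 2.61, 5.20 and 3.10 FPKM in wild-type mice. Of 7 genes of activated endothelium, 6 were at least 1.5-fold higher in both genotypes, where 4.46% of all genes were. The 7 are those of 8 in the list that passed the filter, and the same limit of the filter holds for them. At T0 the median of the 8 was 0.781 FPKM in Krt17 knockout and 1.01 FPKM in wild-type mice. Icam1, an adhesion molecule for leukocytes also made by other cells, had 2.46, 6.68, 10.4 and 5.71 FPKM in Krt17 knockout and 2.21, 3.85, 6.43 and 7.37 FPKM in wild-type mice. Lrg1, a secreted modulator of endoglin signalling, had 4.43, 7.79, 13.0 and 4.85 FPKM in Krt17 knockout and 2.91, 2.44, 7.51 and 10.0 FPKM in wild-type mice. Both peaked at T6 in the knockout and at T9 in wild type.

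**Figure D5:**
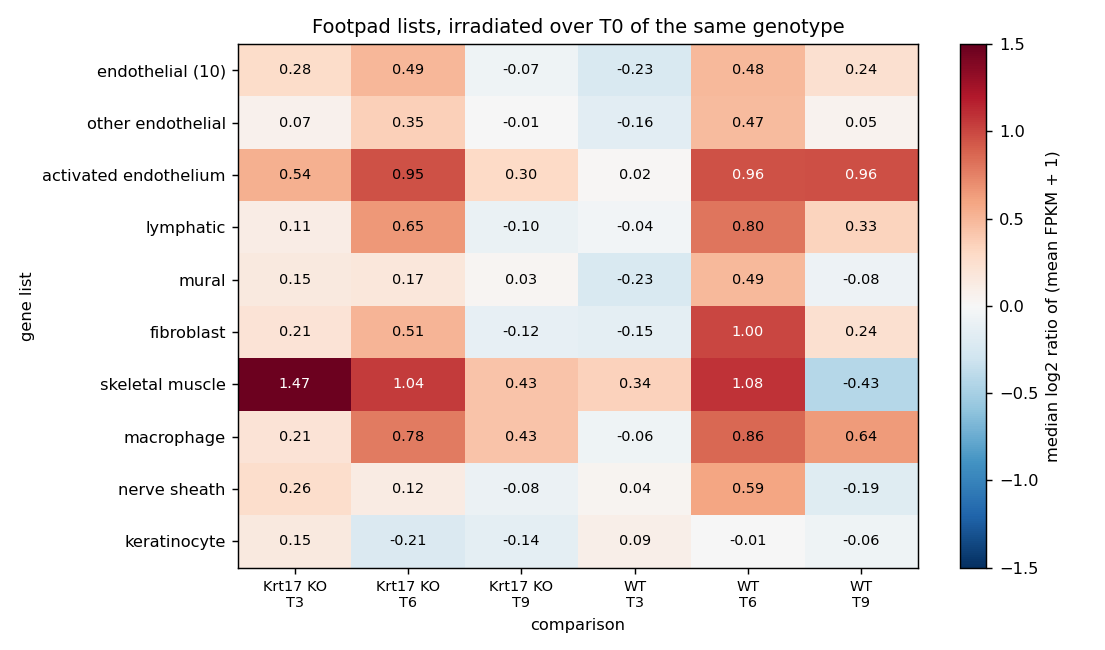
Median log2 ratio of (mean FPKM + 1) over T0 of the same genotype for 10 gene lists (rows) in Krt17 knockout and wild-type footpad at T3, T6 and T9 after 40 Gy (columns, colour and printed number both giving the median). The endothelial rows are highest at T6 in both genotypes, as are fibroblast and macrophage rows, while the skeletal muscle row reaches 1.47 in the Krt17 knockout at T3.

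Lists of other cells were high at T6 too. The summed FPKM of fibroblast genes at T0, T3, T6 and T9 was 368.2, 406.0, 558.0 and 372.3 in Krt17 knockout and 391.0, 350.1, 804.8 and 478.2 in wild-type mice. Macrophage genes summed to 79.8, 90.9, 146.6 and 105.7 FPKM in Krt17 knockout and 66.1, 62.6, 155.4 and 134.7 FPKM in wild-type mice. Skeletal muscle genes summed to 244.3, 694.0, 532.5 and 325.6 FPKM in Krt17 knockout and 121.8, 170.9, 269.4 and 103.9 FPKM in wild-type mice, so the 2 genotypes differed most in muscle genes at T3, the point where the endothelial genes also differed most. Erythroid genes varied from 61.2 to 351.4 FPKM in sum over the footpad groups, with the highest value in Krt17 knockout mice at T3, and platelet genes from 52.5 to 92.4 FPKM, with Gp6, Treml1 and Gp9 at or near 0 in each. Keratinocyte genes summed to 26395 and 29139 FPKM at T0 and T6 in Krt17 knockout and to 27626 and 31654 FPKM in wild-type mice. Their median log2 ratios of T6 over T0 were -0.21 and -0.01, so sum and median went different ways. The part of muscle, dermal and blood genes in the endothelial values was not tested.

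The 10 genes followed each other more closely in footpad than in back skin. Over the 8 footpad groups, Pearson's r between log2(FPKM + 1) values was above 0 for all 45 pairs, with a median of 0.68, a lowest of 0.31 and a highest of 0.98 for Cdh5 and Tie1. Over the 9 back-skin groups the median was 0.28 and 30 of 45 pairs were above 0, from -0.72 for Flt1 and Tek to 0.84 for Eng and Plvap. These are descriptions over few groups that share library preparation and the composition of each skin piece, and no p is attached. Of 7682 other genes with a median of at least 5 FPKM in both tissues, the 10 closest to the mean of the standardised endothelial genes, ranked by the smaller r of the 2 tissues, were Ehd4 (0.83), Rapgef3 (0.83), Ctsb (0.80), Capns1 (0.80), Itm2c (0.80), Ctsz (0.80), Timp2 (0.80), Vwa1 (0.79), St3gal4 (0.79) and Gmppb (0.76). Ehd4 ranged from 14.4 to 23.4 FPKM in back skin and from 7.07 to 11.8 FPKM in footpad.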

How the data were processed

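Mouse back skin and footpad skin were profiled by bulk RNA sequencing after Trizol extraction, per the labels' protocols. The deposited FPKM values are the authors' mean per group of 2 samples, in 1 table per tissue. Per the submitters' processing notes, the tools were TopHat2 2.1.0 and Cufflinks 2.2.1 and the build was mm10. The annotation release, strand setting and way of averaging are not given in the sources used here.

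With means only, ratios were formed on the log2(mean FPKM + 1) scale for 29 comparisons and 7 differences of responses, with no test. Genes with 1 FPKM in at least 1 column of the tissue were compared, and the 116 symbols on several rows were left out. A value of 0 beside a median of 5 FPKM or more in the other columns was treated as missing (19 values in back skin, 32 in footpad, none of them in the 10 genes). Calls were at 2-fold, with 1.5-fold counted beside them. The code for ratios and for rescaling by the median ratio was checked on simulated data without noise. The calls and the filter were not part of that check. Named were the 10 genes, Krt17 and Trp53, the 3 largest ratios of a list in a comparison, and the 10 closest profiles, and of these a selection is printed. Genes of the lists outside that rule were named after their values were seen. The 10 genes and the 16 other lists were chosen with earlier results of these data known. Python 3.11.15, numpy 2.4.6, pandas 2.3.3 and matplotlib 3.10.9 were used.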

Additional observations from a re-analysis of the deposited data

How the results depend on the processing

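The median log2 ratio of the 10 genes moved by less than 1.5-fold under each alternative in all 29 comparisons. With a constant of 0.1 FPKM in place of 1, the number of genes at least 2-fold lower at 6 h became 1 in Krt17 knockout and 1 in wild-type back skin (0 in each with 1 FPKM), and the number higher at 24 h over 6 h in wild type became 2 (1). In footpad, the same constant gave 2 genes higher at T6 in wild type (1), 1 higher at T9 over T0 (0) and 1 higher at T6 over T3 (0) in the Krt17 knockout, 2 lower at T9 over T6 in the Krt17 knockout (1), and 1 higher in Krt17 knockout over wild type at each of T6 and T9 (0 in each). Rescaling columns by their median ratio gave 1 gene lower in p53 knockout over wild type at 6 h (0), as did rescaling without keratin genes (1), and it gave 0 genes higher at T9 over T0 in wild-type footpad (1). The cause of these moves was not tested, except that a smaller constant widens the ratios of genes at a few FPKM by construction. Counts of all genes at 2-fold shifted too, by 119 to 778 genes with 0.1 FPKM. They shifted by -309 to 178 under the median ratio and by -134 to 287 without keratin genes. The shares of all genes given above for the main setting are therefore no background for the counts in this paragraph. The median of the 10 genes changed sign in 4 of 29 comparisons under rescaling without keratin genes. Rescaling by the median ratio shifted the median log2 ratio of all genes by -0.24 to 0.21 and rescaling without keratin genes by -0.17 to 0.12, and of the 290 ratios of single endothelial genes, 13 and 10 changed sign under these 2 settings.

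The filter does not touch the 10 genes, which all pass it. Over all genes, a filter of 5 FPKM moved 35 of 58 counts by more than 1.5 times and the constant of 0.1 FPKM moved 58 of 58. Single-sample values would be needed for any test, SD or depth. No paired analysis was possible because each column is the mean of a group and carries no replicate number, and leaving out single replicates was not run for the same reason.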

Other observations

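Mcam, on the list of pericyte and vascular smooth muscle genes and also made by endothelium and other cells, had the largest ratio of that list in footpad at T6 in both genotypes. It had 5.71, 43.5, 37.6 and 15.8 FPKM over T0, T3, T6 and T9 in Krt17 knockout footpad, and 5.00, 35.3, 29.9 and 16.5 FPKM in wild-type footpad. In back skin at 0, 6 and 24 h it had 12.4, 7.52 and 11.9 FPKM in p53 knockout mice, 13.4, 48.2 and 39.3 FPKM in Krt17 knockout mice, and 13.8, 24.3 and 43.7 FPKM in wild-type mice. In p53 knockout back skin Mcam was thus below its unirradiated level at 6 h and nearly level with it at 24 h. In all 10 irradiated Krt17 knockout and wild-type groups Mcam was above its unirradiated level. None of the 10 endothelial genes had this pattern, and Rgs5 of the same list did not have it either. Rgs5 had 12.1, 14.6 and 12.1 FPKM in p53 knockout, 13.8, 10.4 and 12.8 FPKM in Krt17 knockout and 15.2, 14.9 and 8.68 FPKM in wild-type back skin.

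Notch1, on the list of Notch and arteriovenous genes and abundant in epidermis, had 22.7, 17.7 and 20.9 FPKM over 0, 6 and 24 h in p53 knockout back skin, 22.04, 39.3 and 24.4 FPKM in Krt17 knockout back skin, and 31.6, 36.7 and 27.5 FPKM in wild-type back skin. Its 6 h group was the lowest of the 3 times in the p53 knockout and the highest in both other genotypes.

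Ccl21a, a chemokine gene of lymphatic endothelium, had 35.4, 25.7 and 20.5 FPKM in p53 knockout, 41.6, 13.9 and 23.5 FPKM in Krt17 knockout and 37.4, 24.6 and 19.4 FPKM in wild-type back skin, lower after irradiation in each of the 6 irradiated groups. In footpad it was instead higher at T6, with 11.2, 9.84, 23.8 and 12.4 FPKM over T0, T3, T6 and T9 in Krt17 knockout and 12.005, 7.79, 25.1 and 16.7 FPKM in wild-type mice.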
